A study of Mus musculus with 12 samples.

Results

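Trp53 encodes p53, a transcription factor that is stabilised by DNA damage and other stress and then switches on genes for cell cycle arrest, DNA repair and cell death. Mdm2 is both a target of p53 and the ubiquitin ligase that marks p53 for destruction, so the pair forms a feedback loop. Cdkn2a encodes ARF, which blocks Mdm2, and p16INK4a, which inhibits the kinases Cdk4 and Cdk6. In sarcomas p53 is often lost, and many of its targets can also be transcribed through other factors. The genes described here are Trp53, 8 of its targets (Cdkn1a, Mdm2, Ccng1, Bax, Phlda3, Zmat3, Trp53inp1 and Aen) and Cdkn2a. They were chosen by name, and all 10 had a row among the 16335 genes of the table.

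The RNA came from 12 tumors of BVMA01R, a mouse sarcoma line from C57BL/6J with the labelled genotype Myf5-Cre;p53-/-;Ass1-/-; the labelled sex is female. Myf5-Cre expresses Cre recombinase in the myogenic lineage, and Ass1 encodes argininosuccinate synthase, which cells need to make arginine from citrulline, so every group, untreated tumors included, carried the loss of p53 and of Ass1. The 4 groups of 3 tumors were ADI-PEG20 with chloroquine (ADI-PEG20+CQ), ADI-PEG20, an arginine-degrading enzyme coupled to polyethylene glycol, chloroquine (CQ), which blocks lysosomal degradation, and no treatment (NT). No label gives a dose, a duration, an age or the Trp53 genotype of the host animals, and BVMA01R is 1 line, so the tumors do not sample independent sarcomas. The labels do not say that replicates were separate animals, and the p-values measure the spread between these samples.

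The libraries held 15501998 to 28410940 reads, and the 10 genes had 131 (Trp53inp1) to 6576 (Cdkn2a) reads each per library. Levels are log2 CPM, that is, read counts scaled by the authors to a common effective library size, and CPM is the same value without the logarithm. The library ADI-PEG20 1 stood apart, with 22.8% of its reads on the single gene Gm26917. The next highest was NT 2 with 16.4%, and the others had 5.09% to 9.86%. From a list of 8 muscle precursor markers, Myf5, Des and Chrna1 had at least 154, 1424 and 697 reads in every tumor. Myod1, Myog and Mymk fell to 19, 12 and 12 reads in their lowest libraries, and Pax7 and Pax3 were not among the measured genes. The macrophage markers Csf1r and Cd68 had at least 3036 and 678 reads in every tumor. In such mixed tissue fewer cells of a type and less RNA per cell cannot be told apart.

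p53 binds DNA at a decamer called the p53 half-site, and best to a pair of half-sites close together. RefSeq promoter windows of 300 bases (GRCm38.p6, 250 before to 50 after the transcript start) were found for 8 of the 10 genes, in 11 windows, and none was found for Zmat3 and Trp53inp1. The consensus of the p53 half-site, which is its own reverse complement and so covers both strands, was searched in them. It occurred in 7 of the 11 windows, belonging to 6 of the 8 genes (Trp53, Cdkn1a, Mdm2, Ccng1, Bax and Aen), and in 8.36% of all 32851 windows. The windows of Aen overlap and hold the same half-site, 10 bases after 1 start and 121 before the other, so it is counted in both. Most of the genes were named as p53 targets, so these shares are a description and no test. A pair of half-sites with a gap of at most 13 bases occurred in 24 of all windows (0.0731%), and in 1 window here, at the upstream start of Cdkn1a. The Cdkn1a window is shown because it holds that pair, with the half-sites in capitals, on the plus strand at chr17:29090729-29090975:
Cdkn1a: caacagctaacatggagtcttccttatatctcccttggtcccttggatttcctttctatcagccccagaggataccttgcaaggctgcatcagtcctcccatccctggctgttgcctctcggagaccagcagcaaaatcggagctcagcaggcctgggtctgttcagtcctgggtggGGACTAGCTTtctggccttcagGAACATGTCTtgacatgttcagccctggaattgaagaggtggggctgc
The half-sites begin 73 and 51 bases before the transcript start and are separated by 12 bases. The other 4 stretches show the single half-site of the Trp53, Mdm2, Ccng1 and Bax promoters, in capitals with its flanks, 5′ to 3′ on the gene's strand. They lie at chr11:69580264-69580313 (plus strand), chr10:117710915-117710964 (minus), chr11:40755442-40755491 (minus) and chr7:45467070-45467119 (minus):
Trp53: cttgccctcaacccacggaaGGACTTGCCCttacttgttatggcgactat
Mdm2: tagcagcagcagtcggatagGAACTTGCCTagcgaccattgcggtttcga
Ccng1: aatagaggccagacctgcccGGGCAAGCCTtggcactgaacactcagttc
Bax: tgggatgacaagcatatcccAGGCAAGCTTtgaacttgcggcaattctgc
These half-sites begin 75 bases before the start of Trp53, 186 before that of Mdm2, 185 before that of Ccng1 and 201 before that of Bax. A match, the Cdkn1a pair included, describes these letters, not binding in the tumors. Sites farther upstream or in introns, such as the intron sites of Mdm2, lie outside these windows and were not searched for any gene.

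Per length, the 10 genes spanned from Cdkn2a, near the top of all genes, to Trp53inp1 in the lower part. The geometric mean over 12 libraries was 197 CPM per kb of exon for Cdkn2a, which is the 99.2 percentile of genes, 36.2 for Phlda3, 19.9 for Bax and 16.3 for Ccng1. It was 9.74 for Cdkn1a, 8.77 for Mdm2, 5.48 for Trp53, 4.97 for Aen, 4.69 for Zmat3 and 2.11 for Trp53inp1, the last at the 33.5 percentile. Cdkn2a lay above Phlda3, Phlda3 above Bax, Mdm2 above Trp53 and Zmat3 above Trp53inp1 in all 12 libraries. The other neighbours kept their order in fewer libraries: Bax lay above Ccng1 in 11 of 12, Ccng1 above Cdkn1a in 10, Cdkn1a above Mdm2 in 8, Trp53 above Aen in 8 and Aen above Zmat3 in 7. The length is the union of annotated exons, so a gene that uses few of its exons has its level understated.

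**Figure D1:**
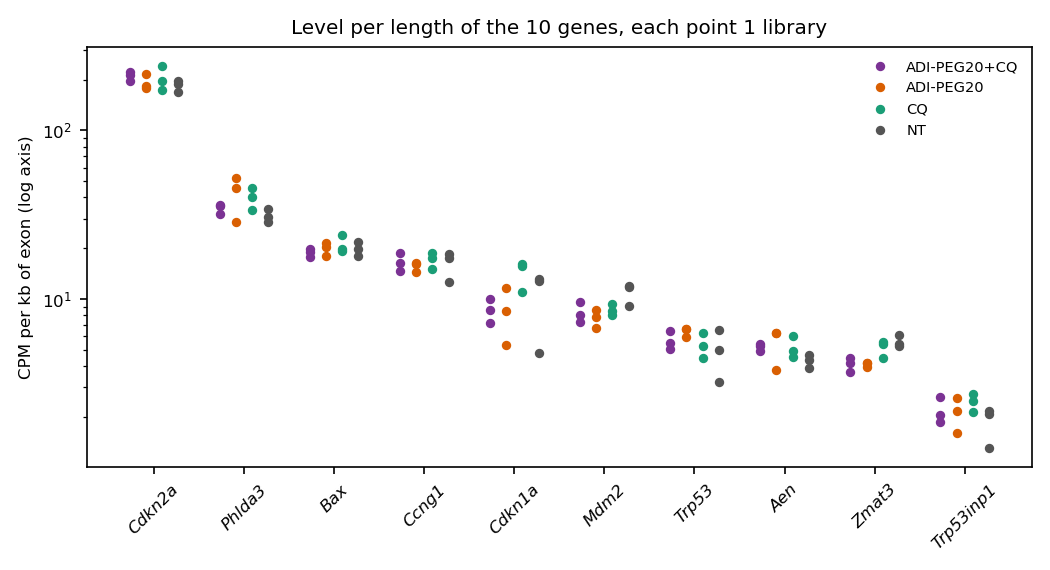
Level of each gene in CPM per kb of exon (log axis), 1 point per library, with ADI-PEG20+CQ, ADI-PEG20, CQ and NT tumors from left to right within each gene. Cdkn2a runs from 169 to 240.4 CPM per kb and Trp53inp1 from 1.30 to 2.74, and the points of Cdkn1a spread widest.

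No gene of the table, and so none of the 10, passed an adjusted p of 0.05 in any of the 8 contrasts fitted with limma (percent called 0 in each). An unadjusted p under 0.05 was reached by 1413 genes (8.65%) for ADI-PEG20+CQ against NT, 1357 (8.31%) for ADI-PEG20 against NT and 555 (3.4%) for CQ against NT, and by 365 to 1601 in the other 5 contrasts. Of the 10 genes, Zmat3 and Mdm2 were among the lower genes at that level for ADI-PEG20+CQ (3.95% of all genes) and for ADI-PEG20 (3.13%), and none of the 10 reached it for CQ. Voom on recovered reads and the authors' deposited table also held 0 genes past the adjusted threshold in these comparisons with NT, while 8 genes passed for ADI-PEG20+CQ with the replicate number as a block and 1 passed for ADI-PEG20 without NT 3, none of them among the 10. The 3 comparisons share the NT tumors and are not independent of each other.

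Trp53 reads were present in every tumor despite the labelled genotype. The CPM was 26.2, 20.4 and 22.1 in ADI-PEG20+CQ tumors, 26.8, 24.2 and 26.8 in ADI-PEG20 tumors, 18.1, 21.2 and 25.4 in CQ tumors and 13.05, 20.1 and 26.7 in NT tumors. The lowest value was NT 1, and each treated group overlapped the untreated one. The log2 difference from NT was 0.25 ± 0.24 (SE, 95% interval -0.25 to 0.76, adjusted p = 0.796) for ADI-PEG20+CQ, and 0.44 ± 0.24 (-0.069 to 0.95, adjusted p = 0.620) for ADI-PEG20. For CQ it was 0.16 ± 0.24 (-0.35 to 0.67, adjusted p = 0.999). Without NT 1 these differences were -0.024, 0.16 and -0.12. A count per gene does not show which exons the reads came from, so transcripts of a partly deleted allele and of host cells cannot be told apart. All groups share the genotype, so the level checks no group label. The pseudogene Trp53-ps, which resembles Trp53, is not analysed here, and reads it shares with Trp53 are uncertain.

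**Figure D2:**
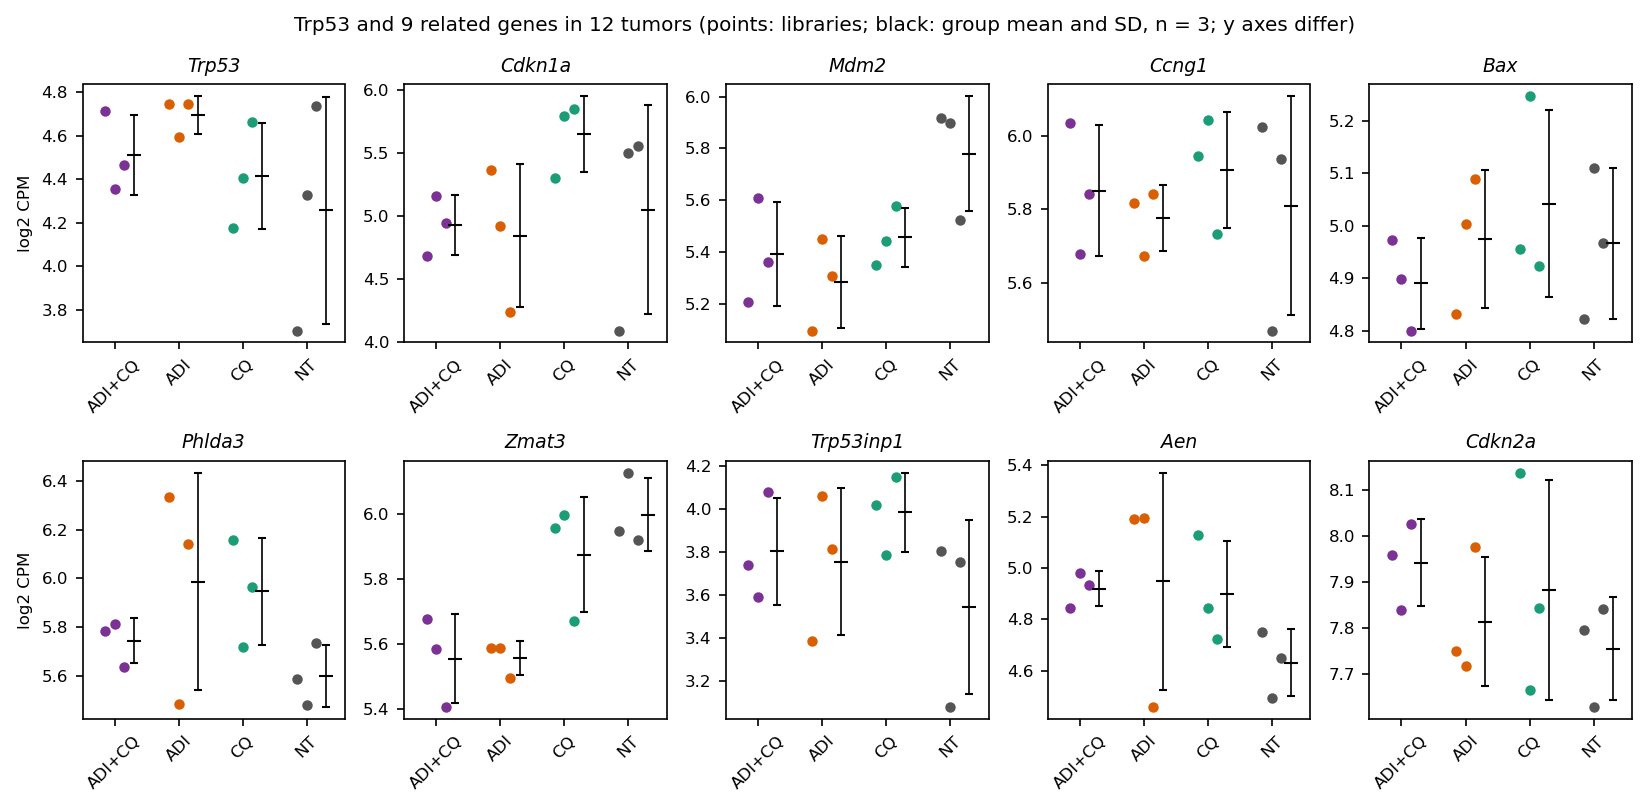
Log2 CPM of Trp53 and the 9 related genes in each of 12 libraries, by group (ADI-PEG20+CQ, ADI-PEG20, CQ and NT from left to right), with the mean and SD of 3 libraries in black and a y axis of its own for each gene. Zmat3 lies lower in all 6 ADI-PEG20-treated tumors than in the 3 NT tumors, and Cdkn1a and Trp53 have 1 low NT library.

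Cdkn1a, which encodes the cell cycle inhibitor p21, varied most between tumors of the same group. Its CPM was 25.7, 35.6 and 30.7 in ADI-PEG20+CQ tumors, 41.2, 30.2 and 18.9 in ADI-PEG20 tumors, 39.3, 55.4 and 57.5 in CQ tumors and 17.0, 45.2 and 46.9 in NT tumors. The lowest library was NT 1 and the highest CQ 3, which differed 3.38-fold. Its SD within groups was 0.54 on the log2 scale, at the 95.2 percentile of the 1000 genes nearest to it in level, whose median was 0.24. All 3 ADI-PEG20+CQ tumors lay below all 3 CQ tumors, with a log2 difference of -0.72 ± 0.36 (SE, 95% interval -1.50 to 0.060, adjusted p = 0.757). In that comparison 9.57% of all genes were lower without overlap, and Cdkn1a was the only one of the 10 genes among them. Against NT the log2 difference was -0.12 for ADI-PEG20+CQ (95% interval -0.90 to 0.66), -0.21 for ADI-PEG20 (-0.99 to 0.57) and 0.60 for CQ (-0.18 to 1.38). Without NT 1 these were -0.60, -0.69 and 0.12. Averaged over both CQ states, tumors with ADI-PEG20 differed from those without by -0.46 ± 0.26 (adjusted p = 0.590), and averaged over both ADI-PEG20 states tumors with CQ differed from those without by 0.34 ± 0.26 (adjusted p = 0.9997). An unnamed transcript on the opposite strand shares 7.68% of the exon bases of Cdkn1a and is not in the table, and the strand setting of the counting is not given in the sources used here.

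Mdm2 had lower values in the treated tumors than in most NT tumors. Its CPM was 36.9, 48.7 and 41.0 in ADI-PEG20+CQ tumors, 34.2, 43.7 and 39.5 in ADI-PEG20 tumors, 40.8, 43.5 and 47.7 in CQ tumors and 60.5, 59.6 and 46.0 in NT tumors. All 3 ADI-PEG20 tumors lay below all 3 NT tumors, and the other treated groups each overlapped NT through NT 3. The log2 difference from NT was -0.39 ± 0.17 (SE, 95% interval -0.74 to -0.032, adjusted p = 0.548) for ADI-PEG20+CQ and -0.50 ± 0.17 (-0.85 to -0.14, adjusted p = 0.519) for ADI-PEG20. For CQ it was -0.32 ± 0.17 (-0.68 to 0.033, adjusted p = 0.999). The difference between the effect of ADI-PEG20 with CQ and without CQ, the interaction, was 0.43 ± 0.23 (adjusted p = 0.825).

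Zmat3, a zinc finger protein that binds RNA and alters splicing, had lower values in tumors given ADI-PEG20 than in NT tumors. Its CPM was 51.1, 47.9 and 42.4 in ADI-PEG20+CQ tumors, 48.0, 48.1 and 45.1 in ADI-PEG20 tumors, 62.1, 63.8 and 50.9 in CQ tumors and 61.7, 69.8 and 60.5 in NT tumors. All 6 tumors given ADI-PEG20 lay below all 3 NT tumors, and the low CQ library, CQ 3, lay just under the highest of the 6. The log2 difference from NT was -0.44 ± 0.14 for ADI-PEG20+CQ (SE, 95% interval -0.75 to -0.14, fold 0.736, adjusted p = 0.426) and -0.44 ± 0.14 for ADI-PEG20 (-0.74 to -0.14, fold 0.737, adjusted p = 0.519). For CQ against NT it was -0.12 ± 0.14 (adjusted p = 0.999), and for ADI-PEG20+CQ against CQ, where 6.78% of genes had an unadjusted p under 0.05, it was -0.32 ± 0.14 (adjusted p = 0.717). Averaged over both CQ states, tumors with ADI-PEG20 differed from those without by -0.38 ± 0.099 (95% interval -0.59 to -0.17, adjusted p = 0.242), the smallest adjusted p of the 10 genes in any contrast. In that contrast 9.8% of genes had an unadjusted p under 0.05 (4.38% among the lower ones), as did Mdm2, whose difference was -0.28 ± 0.12 (adjusted p = 0.453). Without ADI-PEG20 1 the Zmat3 difference was -0.39 and that of Mdm2 -0.23. The SD of Zmat3 within groups was 0.13, at the 8.7 percentile of the 1000 genes nearest in level.

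Counted together, groups did not overlap NT for Mdm2 and Zmat3 among genes lower under ADI-PEG20, where 4.54% of all genes were lower without overlap, and for none of the 10 among those higher (5.57%). For ADI-PEG20+CQ they did not overlap for Zmat3 among genes lower (7.92%) and for Aen among genes higher (7.46%). For CQ all 10 overlapped NT, where 3.69% of genes were higher and 3.72% lower without overlap. The median log2 difference of the 10 genes was 0.093 for ADI-PEG20+CQ (6 higher, 4 lower), 0.034 for ADI-PEG20 (6 higher, 4 lower) and 0.14 for CQ (8 higher, 2 lower). With plain library totals, which shift the median of all genes for ADI-PEG20+CQ to 0.17, 8 were higher and 2 lower for ADI-PEG20+CQ, with a median of 0.26, and the counts for ADI-PEG20 and CQ were as before. In the deposited scaling the median log2 differences of all genes were 0.0054, -0.0096 and -0.0044.

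**Figure D3:**
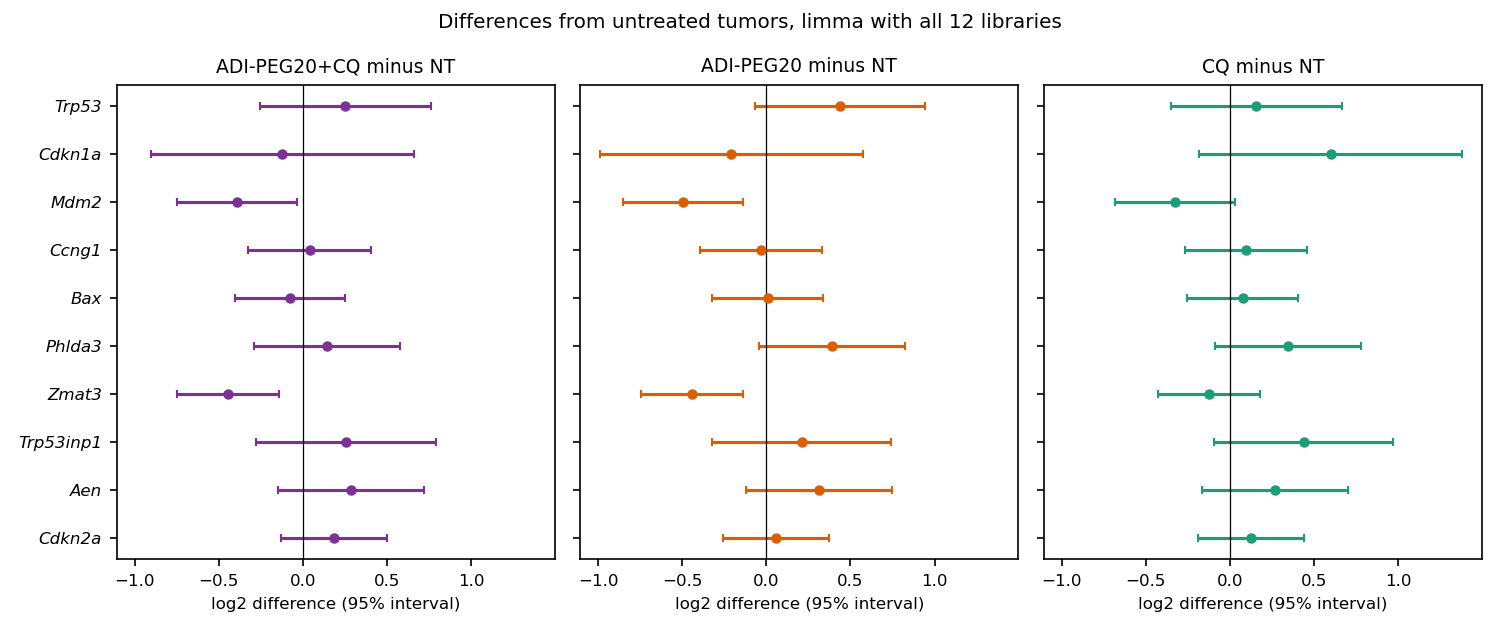
Log2 difference from NT with its 95% interval for each gene, from left to right for ADI-PEG20+CQ, ADI-PEG20 and CQ, from limma with 12 libraries. The intervals of Mdm2 and Zmat3 lie below 0 for ADI-PEG20+CQ and ADI-PEG20, and every other interval spans 0, before adjustment over 16335 genes.

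Aen and Phlda3 act in cell death: Aen is a nuclease that degrades DNA and RNA in dying cells, and Phlda3 restrains the survival kinase Akt. Aen had 28.7, 31.5 and 30.5 CPM in ADI-PEG20+CQ tumors, 36.5, 36.6 and 22.0 in ADI-PEG20 tumors, 34.9, 28.7 and 26.5 in CQ tumors and 26.95, 22.6 and 25.1 in NT tumors. The ADI-PEG20+CQ tumors all lay above NT, with a log2 difference of 0.29 ± 0.20 (SE, adjusted p = 0.717), and ADI-PEG20 3 was the lowest of all libraries. Phlda3 had 55.2, 56.2 and 49.8 CPM in ADI-PEG20+CQ tumors, 80.8, 44.7 and 70.6 in ADI-PEG20 tumors, 71.5, 52.6 and 62.4 in CQ tumors and 48.0, 44.6 and 53.2 in NT tumors. The log2 differences of Phlda3 from NT were 0.15, 0.39 and 0.35 for ADI-PEG20+CQ, ADI-PEG20 and CQ, each within an interval that spans 0. Its interaction of -0.59 ± 0.28 (95% interval -1.20 to 0.023, adjusted p = 0.825) was the largest in size among the 10 genes, and without ADI-PEG20 1 it was -0.42.

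Bax and Ccng1 showed little separation of the groups, and Trp53inp1 had larger differences from NT, though every treated group overlapped NT. Bax, which permeabilises the mitochondrial membrane in apoptosis, ran from 27.9 to 38.0 CPM over the 12 libraries, and its differences from NT were -0.076 for ADI-PEG20+CQ, 0.0086 for ADI-PEG20 and 0.076 for CQ, all with intervals that span 0. The SD of Bax within groups was 0.14, at the 7.1 percentile of the 1000 genes nearest in level. Ccng1, which encodes cyclin G1, ran from 44.3 to 66.0 CPM, with differences of 0.041, -0.033 and 0.097 in the same order. Trp53inp1, a stress protein that takes part in autophagy and cell death, ran from 8.44 CPM in NT 2 to 17.7 in CQ 3. Its CPM was 16.2, 13.8 and 17.7 in CQ tumors and 14.0, 8.44 and 13.5 in NT tumors. The differences of Trp53inp1 were 0.26, 0.21 and 0.44, all with intervals that span 0. The predicted gene Gm45808 shares 12.2% of the exon bases of Bax on the same strand and is not in the table.

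Cdkn2a was the most abundant of the 10 per length in every library, and its SD within groups of 0.16 lay at the 24.6 percentile of the 1000 genes nearest in level. Its CPM was 249, 229 and 261 in ADI-PEG20+CQ tumors, 215, 210.2 and 252 in ADI-PEG20 tumors, 282, 203 and 229.8 in CQ tumors and 222, 198 and 229 in NT tumors. The groups overlapped, and the highest library was 1.43-fold above the lowest. The log2 difference from NT was 0.19 for ADI-PEG20+CQ (95% interval -0.13 to 0.50, adjusted p = 0.745), 0.059 for ADI-PEG20 (-0.26 to 0.37) and 0.13 for CQ (-0.19 to 0.44). Neither of its promoter windows held the half-site. A count per gene does not separate p16INK4a from ARF, which share exons.

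Trp53 was set against each of the 9 other genes over the 12 libraries, and no relation passed an adjusted p of 0.05. The strongest was with Mdm2 (Pearson r = -0.66, permutation p = 0.0193, adjusted p = 0.174; Spearman rho = -0.62, permutation p = 0.0373, adjusted p = 0.335). Without NT 1 and CQ 1, the libraries farthest from the Trp53 median, r with Mdm2 was -0.66, and with values centred within each group it was -0.51. Zmat3 had r = -0.49 (permutation p = 0.101, adjusted p = 0.453; rho = -0.52), which was -0.35 without those libraries and -0.16 within groups. Cdkn1a had r = 0.31 (permutation p = 0.339, adjusted p = 0.764; rho = 0.049). Within groups that relation was 0.64 (permutation p = 0.0262, adjusted p = 0.236), and without NT 1 and CQ 1 the pooled r was -0.30, so its sign rests on those libraries. The permutation within groups treated the 12 centred values as independent, though centring fixes the mean of each group, so its p is too small. The other 6 genes had r between -0.15 and 0.34.

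**Figure D4:**
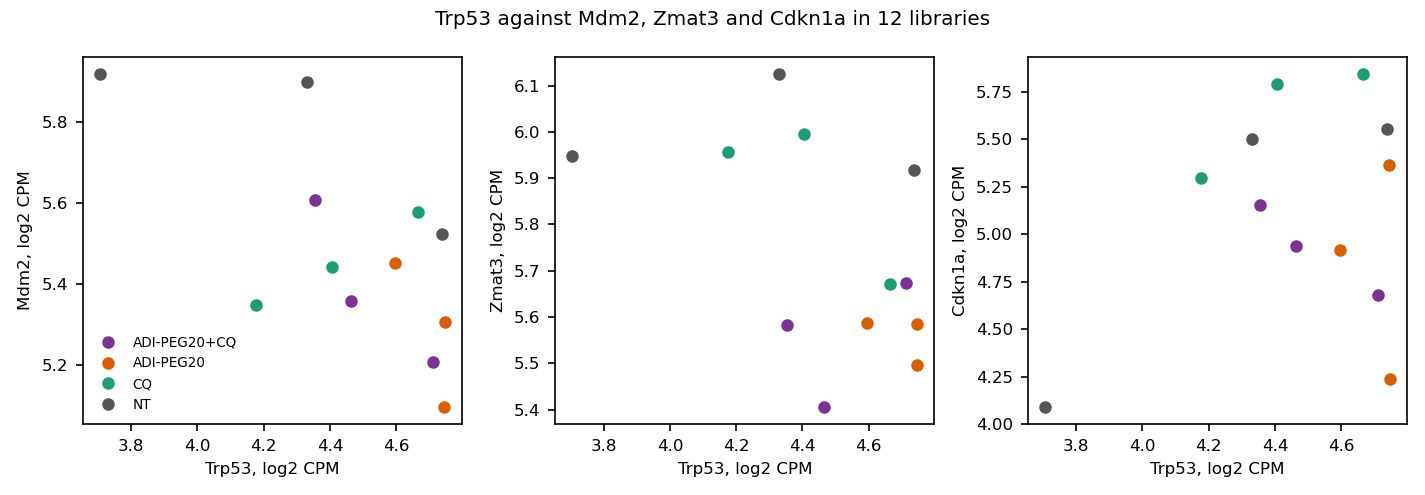
Log2 CPM of Mdm2, Zmat3 and Cdkn1a (y axes) against that of Trp53 (x axes), 1 point per library, coloured by group. Mdm2 is highest in NT 1, where Trp53 is lowest, and the low Cdkn1a point at the left of the right panel is also NT 1.

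The genes whose log2 CPM followed each pattern most closely over the 12 libraries are named by Pearson's r, as a description. For Trp53 they were Batf2 (r = 0.94, 7 to 99 reads per library), Gpr107 (0.92) and Ptprj (0.92). For Cdkn1a they were Gm17230 (0.92), Zfp106 (0.90) and Metrn (0.86), of which only Zfp106 had over 67 reads in any library. For Mdm2 they were Dlat (0.94), Lin7a (0.93, 3 to 53 reads per library) and Klf5 (0.92), and for Cdkn2a Lmbrd1 (0.91), Tbl2 (0.91) and Fkbp7 (0.90). No other member of the 10 was among them.

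Further genes of the pathway were read from lists, and none passed an adjusted p of 0.05 in any contrast. Of 20 further direct targets in cell cycle control and DNA repair, 10 were higher and 10 lower for ADI-PEG20+CQ, 11 and 9 for ADI-PEG20 and 11 and 9 for CQ, with medians of -0.0031, 0.031 and 0.0080. With plain library totals 13 were higher and 7 lower for ADI-PEG20+CQ, with a median of 0.16, where that of all genes was 0.17. Sesn2, a stress-induced inhibitor of mTORC1 signalling, had 31.4, 44.1 and 47.5 CPM in ADI-PEG20+CQ tumors, 40.5, 34.7 and 36.5 in ADI-PEG20 tumors, 28.3, 28.2 and 40.9 in CQ tumors and 16.9, 26.7 and 22.8 in NT tumors. Every treated tumor lay above every NT tumor for Sesn2, with differences of 0.89 (adjusted p = 0.315), 0.77 (adjusted p = 0.481) and 0.55 (adjusted p = 0.999) for ADI-PEG20+CQ, ADI-PEG20 and CQ. Of all genes 7.46%, 5.57% and 3.69% were higher without overlap in these comparisons, and Sesn2 and Plk2 were named for their small p. Plk2, a kinase of centriole duplication, lay below NT in every treated tumor, with differences of -0.41 (adjusted p = 0.609), -0.55 (adjusted p = 0.543) and -0.50 (adjusted p = 0.999) for ADI-PEG20+CQ, ADI-PEG20 and CQ, where 7.92%, 4.54% and 3.72% of all genes were lower without overlap.

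Of 23 further targets in cell death and metabolism, 12 were higher and 11 lower for ADI-PEG20+CQ, 13 and 10 for ADI-PEG20 and 9 and 14 for CQ, with medians of 0.011, 0.0066 and -0.073. With plain library totals 17 were higher and 6 lower for ADI-PEG20+CQ, with a median of 0.18, where that of all genes was 0.17. Tnfrsf23, a decoy receptor for the death ligand TRAIL in mice, differed by -0.77 for ADI-PEG20+CQ (adjusted p = 0.426) and -0.66 for ADI-PEG20 (adjusted p = 0.524). Apaf1, the scaffold of the apoptosome, differed by -0.25 for ADI-PEG20+CQ (adjusted p = 0.663) and -0.40 for ADI-PEG20 (adjusted p = 0.524), where its groups did not overlap. In that comparison 4.54% of all genes were lower without overlap. The highest ADI-PEG20 tumor had 67.3 CPM of Apaf1, just under the lowest NT tumor at 67.9. Tnfrsf23 and Apaf1 were named for their small p. In the authors' deposited table of KEGG sets, p53 signaling, with 69 genes of which 7 are among the 10, had one-sided p-values of 0.371 for ADI-PEG20+CQ, 0.0883 for ADI-PEG20 and 0.379 for CQ, and none passed the authors' adjustment over 246 sets (adjusted p = 0.814 for ADI-PEG20 and 0.757 for CQ). The direction of these one-sided tests is not given here, so the p-values are read neither as a rise nor as a fall.

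Of 19 measured regulators and relatives of p53, 11 were higher and 8 lower for ADI-PEG20+CQ, 9 and 10 for ADI-PEG20 and 13 and 6 for CQ, with medians of 0.067, -0.0017 and 0.086. With plain library totals 17 were higher and 2 lower for ADI-PEG20+CQ, with a median of 0.23, where that of all genes was 0.17. Without ADI-PEG20 1, 12 were higher and 7 lower for ADI-PEG20. Rchy1, a ubiquitin ligase for p53, differed by -0.10 for ADI-PEG20+CQ and -0.43 for ADI-PEG20 (adjusted p = 0.570). Trp63, which encodes the relative p63, was scarce, at 1.51 to 5.83 CPM, and differed by -0.70, -0.38 and -0.91 for ADI-PEG20+CQ, ADI-PEG20 and CQ, with intervals that span 0. Of 16 inhibitors of cyclin-dependent kinases, Rb proteins and partners, 7 were higher and 9 lower for ADI-PEG20+CQ and for ADI-PEG20, and 12 and 4 for CQ. With plain library totals 12 were higher and 4 lower for ADI-PEG20+CQ, with a median of 0.14, where that of all genes was 0.17. Cdkn2b, the neighbour of Cdkn2a that encodes p15INK4b, differed by 0.39 for ADI-PEG20+CQ (adjusted p = 0.540), where its groups did not overlap (7.46% of all genes were higher without overlap). Ccne1, which encodes cyclin E1, differed by 0.083 for ADI-PEG20+CQ, -0.28 for ADI-PEG20 (adjusted p = 0.684) and 0.28 for CQ (adjusted p = 0.999). Its groups did not overlap for ADI-PEG20, where 4.54% of all genes were lower without overlap, or for CQ, where 3.69% were higher. Rchy1, Trp63, Cdkn2b and Ccne1 were named for their small p.

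Of 20 cell cycle genes that p53 represses through p21 and the DREAM complex, all 20 were lower under ADI-PEG20 than in NT, with a median of -0.29, where 48.7% of all genes were higher. The mean log2 CPM of the list overlapped between the groups, at 4.77, 5.16 and 4.97 in ADI-PEG20 tumors and 5.55, 5.25 and 5.08 in NT tumors. The lowest of all 12 was ADI-PEG20 1, the library that stood apart, and without it, in a comparison added after seeing the data, 19 were lower and 1 higher, with a median of -0.22. All 9 mitochondrial transcripts, a sign of RNA quality, were lower for ADI-PEG20 as well (median -0.24), and without ADI-PEG20 1 7 were higher and 2 lower. For ADI-PEG20+CQ 18 of the 20 cell cycle genes were lower and 2 higher, with a median of -0.16. With plain library totals 10 were lower and 10 higher, with a median of 0.0059, where that of all genes was 0.17. For CQ 10 were lower and 10 higher, with a median of -0.014. With plain totals 7 were lower and 13 higher, with a median of 0.039, where that of all genes was 0.048. Plk1, a mitotic kinase, had 34.8, 25.7 and 30.4 CPM in ADI-PEG20+CQ tumors, 23.9, 34.5 and 22.0 in ADI-PEG20 tumors, 47.6, 42.0 and 37.7 in CQ tumors and 38.5, 35.6 and 36.8 in NT tumors. Its 6 ADI-PEG20-treated values all lay below the 6 others, with a difference of -0.49 ± 0.13 (SE, adjusted p = 0.249). The highest of these 6, at 34.8 CPM, lay just under the lowest of the others, at 35.6. In that contrast 0.245% of all genes were lower without overlap. Plk1 and Aurka were named for their small p over contrasts that include this one, so the separation of Plk1 is partly set by that choice. Aurka, another mitotic kinase, differed from NT by -0.12 for ADI-PEG20+CQ (adjusted p = 0.888) and -0.51 for ADI-PEG20 (adjusted p = 0.519). Cdkn1a, the inhibitor upstream of this list, had a log2 difference of -0.21 from NT under ADI-PEG20, with the interval given above.

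**Figure D5:**
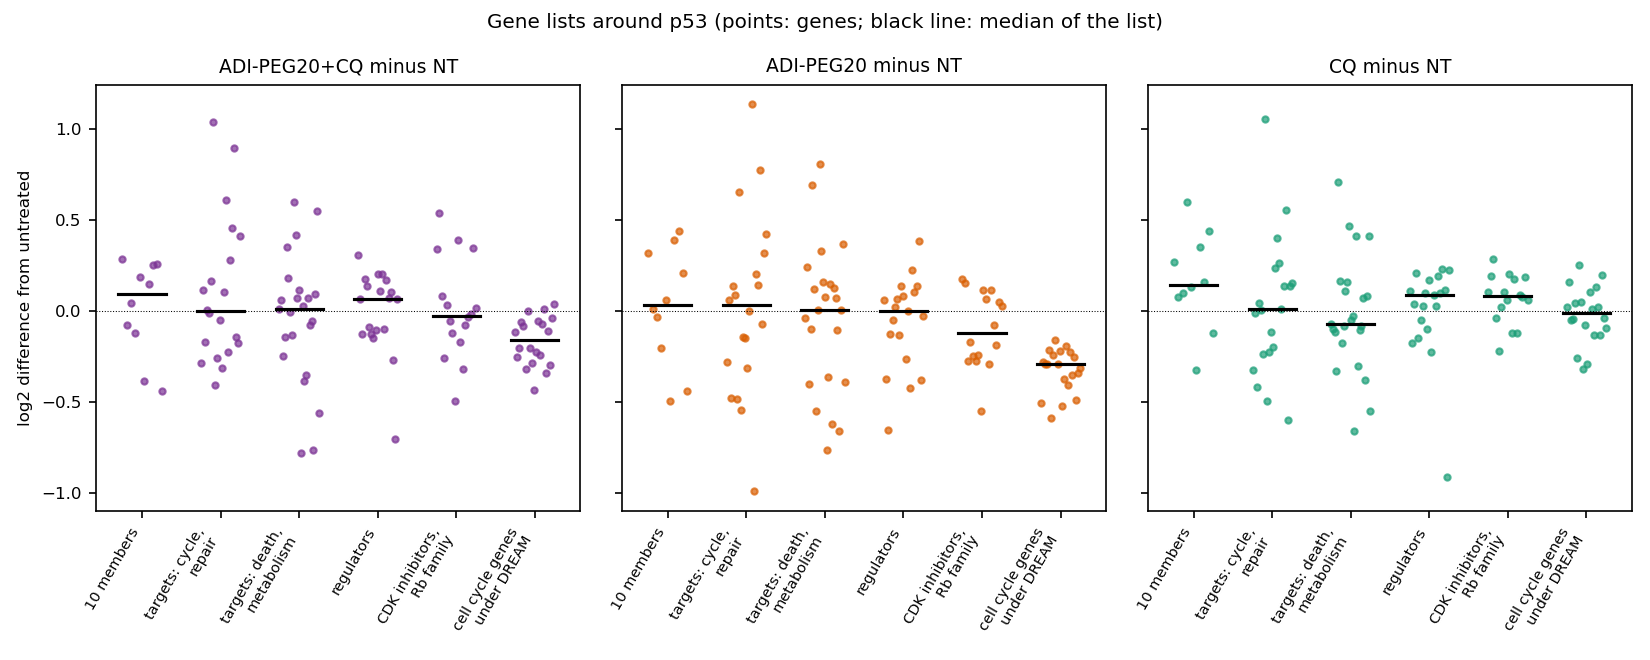
Log2 difference from NT of each gene (points) in the 10 genes and in 5 further lists of the p53 pathway, with the median of each list in black, for ADI-PEG20+CQ, ADI-PEG20 and CQ from left to right. All 20 cell cycle genes lie below 0 for ADI-PEG20, while the target lists spread on both sides of 0.

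Macrophage markers were also higher in tumors given ADI-PEG20, with none past the adjusted threshold. The mean log2 CPM of 12 macrophage markers, all present in every tumor, was 6.41 to 6.87 in ADI-PEG20+CQ tumors, 6.21 to 6.73 in ADI-PEG20 tumors, 5.87 to 6.22 in CQ tumors and 5.72 to 6.00 in NT tumors. All 12 were higher than NT for ADI-PEG20+CQ and for ADI-PEG20, and 9 of 12 for CQ. Without ADI-PEG20 1, 11 of the 12 were higher for ADI-PEG20. The mean of 11 skeletal muscle fibre markers was 0.30 to 2.22 in ADI-PEG20+CQ tumors, 1.44 to 7.01 in ADI-PEG20 tumors, 3.62 to 4.55 in CQ tumors and 1.11 to 6.32 in NT tumors. For ADI-PEG20 4 of the 11 were higher and 7 lower, and without ADI-PEG20 1, the library with the highest mean, all 11 were lower. The mean of 8 T cell markers was 0.12 to 1.18 in ADI-PEG20+CQ tumors, 1.18 to 1.60 in ADI-PEG20 tumors, 0.15 to 1.91 in CQ tumors and -0.25 to 0.71 in NT tumors, with Cd3g at 0 in at least 1 library. All 8 were higher for ADI-PEG20 and for CQ, and 7 of the 8 for ADI-PEG20+CQ. All 6 adipocyte markers were higher for ADI-PEG20 (0.91 to 4.25, against 0.54 to 1.99 in NT tumors), and without ADI-PEG20 1 3 were higher and 3 lower. For ADI-PEG20+CQ all 6 were higher, and for CQ 1 was higher and 5 lower. All 5 erythroid markers were lower for ADI-PEG20 (1.63 to 2.96, against 2.46 to 4.56 in NT tumors) and for CQ. For ADI-PEG20+CQ 4 of the 5 were higher. Of the endothelial markers 6 of 8 were higher for ADI-PEG20, of the fibroblast markers 4 of 8, of the keratinocyte markers 4 of 6 and of the myogenic precursor markers 3 of 6. The mean of the mitochondrial transcripts was 8.18 to 8.63 in ADI-PEG20+CQ tumors, 7.45 to 8.36 in ADI-PEG20 tumors, 7.85 to 8.30 in CQ tumors and 7.73 to 8.67 in NT tumors. The part of any of these in the values of Zmat3, Mdm2 and the cell cycle genes was not tested.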

How the data were processed

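RNA-seq of 12 tumors in 4 groups of 3 was read from 1 merged table. Per the submitters' processing notes, which give neither roles nor order, the build was mm10 and the tools named are STAR 2.5.1a, bcl2fastq, Salmon 0.8.2, featureCounts 1.4.6-p5 (Subread), limma and edgeR. The authors deposited log2 CPM per library, with 0.5 reads added. Whole reads were recovered from the deposited log2 values (100% within 0.02 of a whole number under 2000 reads). Per the file headers, the table also holds log2 fold changes, a signed linear fold change (a score), p-values and adjusted p-values of the authors' comparisons, and KEGG tables hold p-values per set. After 51 repeated lines were dropped, 16335 genes were left, each with at least 85 reads in total, and no filter was added.

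Differences came from limma (version 3.58.1, under R version 4.3.3), run on these log2 CPM values in 1 fit of all 12 libraries (trend, no covariate, two-sided tests), with Benjamini-Hochberg adjustment over all genes, and the fit was tested on simulated data. Relations used 100000 two-sided permutations (scipy 1.17.1), adjusted over 9. Exon lengths and overlaps came from GENCODE annotation of the same build, and promoters from RefSeq. The genes and lists were chosen with earlier results of these data known. Named further genes are the 2 of smallest p in each list over the comparisons with NT and the pooled contrasts. Genes alike in pattern are the 3 of highest r.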

Additional observations from a re-analysis of the deposited data

How the results depend on the processing

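None of the 38 differences of the 10 genes given above passed the threshold under any of 748 recalculations, whose smallest adjusted p was 0.0800, and 726 kept the sign. With plain library totals the median of all genes moved to 0.17 for ADI-PEG20+CQ minus NT and ADI-PEG20+CQ minus ADI-PEG20, 0.12 for ADI-PEG20+CQ minus CQ, the interaction and the pooled CQ contrast. The ADI-PEG20+CQ minus NT difference then turned to 0.043 for Cdkn1a and 0.089 for Bax, both below that shift. Leaving out 1 library turned the sign of some log2 differences, given here as ranges over the 12 omissions. For ADI-PEG20+CQ minus NT they were Ccng1 -0.13 to 0.15, Cdkn1a -0.60 to 0.13, Trp53 -0.024 to 0.49. For ADI-PEG20 minus NT they were Bax -0.064 to 0.081, Ccng1 -0.20 to 0.074, Cdkn1a -0.69 to 0.093, Cdkn2a -0.022 to 0.11, Trp53inp1 -0.024 to 0.39. For CQ minus NT they were Bax -0.027 to 0.15, Ccng1 -0.073 to 0.20, Trp53 -0.12 to 0.40.

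Counts of genes past the threshold were 0 in the fits above. They were 72 for ADI-PEG20+CQ minus CQ with only the groups compared, and 1 with library quality weights and in the authors' deposited table. For pooled ADI-PEG20 the count was 47 with quality weights. Leaving out 1 library gave 0 to 1 for ADI-PEG20 minus NT (1 without NT 3), 0 to 1 for ADI-PEG20+CQ minus CQ (1 without ADI-PEG20 3) and 0 to 19 for pooled ADI-PEG20 (13 without NT 2, 15 without NT 3, 8 without CQ 3, 19 without ADI-PEG20 1, 3 without ADI-PEG20 2). The cause was not tested.

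With the replicate number as a block, the counts were 8 for ADI-PEG20+CQ minus NT and 31 for pooled ADI-PEG20. Same-numbered libraries of different groups had correlated deviations of -0.050 to 0.20 (median 0.097), over 0.1 in 9 of 18 pairs. Differently numbered ones had -0.24 to 0.19 (median -0.039), over 0.1 in 3 of 36 pairs. As not every same-numbered pair was correlated, the numbers were not taken to pair the tumors. Of the 12 libraries, 10 correlated best, on average, with their own number, a hint from the data and not from the design.

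For Trp53 the r with Trp53inp1 was -0.11 and with Cdkn2a -0.073 within groups, and without NT 1 and CQ 1 it was -0.30 with Cdkn1a, 0.43 with Ccng1, -0.26 with Bax and 0.0093 with Aen. The planned edgeR and DESeq2 fits were not run.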
